A study of Mus musculus with 6 samples.

Results

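Transcripts of immunoglobulin variable (V) segments were examined in RNA-seq libraries of small bowel adenomas, 3 from ApcMin.PCdel and 3 from ApcMin mice. The V segments were chosen by their measured level: every gene row named Ighv, Igkv or Iglv whose FPKM (the number of sequenced fragments, corrected for gene length and sequencing depth) averaged at least 1 over the 6 libraries was kept. This gave 198 of 348 V segment rows, 98 of 185 heavy, 97 of 160 kappa and all 3 lambda rows, out of 48440 genes in the deposited tables. Since the mean level chose these 198 segments, that level is given as a description and supports nothing.

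All mice carried the ApcMin allele, which gives rise to intestinal adenomas, on a C57BL/6 background, and were older than 42 days. ApcMin.PCdel mice were Defa4-Cre, Rosa26 iDTA/WT, so that cells that have expressed Cre from the Defa4 locus make the diphtheria toxin A chain and the Paneth cell lineage is depleted. ApcMin controls carried Rosa26 iDTA/WT without Cre, and the Cre line is an IRES-Cre knock-in made in 129/svJ embryonic stem cells. The libraries are named by the numbers in their labels, 4, 5 and 6 for ApcMin and 3, 8 and 10 for ApcMin.PCdel, and values are given in that order throughout. Nothing states whether a library holds a single adenoma or several, or a single mouse or several, so p-values measure only the spread between these libraries.

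Each developing B cell builds its antibody genes by V(D)J recombination, in which the RAG1 and RAG2 proteins join a V segment to a J segment in a light chain locus, and a V, a D and a J segment in the heavy chain locus. The chosen V segment is then transcribed with the constant region, and its sequence encodes most of the antigen-binding domain. The intestinal lamina propria holds many plasma cells, the antibody-secreting end stage of the B lineage, which mostly make IgA for transport across the epithelium. A plasma cell clone uses a given V pair in all its cells, so the mix of V transcripts in a tissue carries information on its mix of clones. In bulk tissue, fewer cells of a type and less RNA per cell cannot be told apart.

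The 8 segments that led their chain in at least 1 library are shown here by the last 60 bases of their coding sequence, read 5′ to 3′ from GENCODE transcripts of GRCm38, because this end joins the J or D segment. Capitals mark the last in-frame cysteine codon, which lies at the start of the third complementarity-determining region. It was followed by 6 to 8 bases in the 4 heavy segments, by 23 bases in the 3 kappa segments and by 24 bases in Iglv1.
Ighv1-26 (chr12:114788372-114788431, minus strand): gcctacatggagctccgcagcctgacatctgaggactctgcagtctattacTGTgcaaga
Ighv3-6 (chr12:114288152-114288211, minus strand): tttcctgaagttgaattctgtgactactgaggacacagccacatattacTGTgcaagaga
Ighv1-82 (chr12:115952538-115952597, minus strand): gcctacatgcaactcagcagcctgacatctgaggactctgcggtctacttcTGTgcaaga
Ighv1-15 (chr12:114657353-114657412, minus strand): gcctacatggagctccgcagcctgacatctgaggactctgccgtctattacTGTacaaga
Igkv3-2 (chr6:70699008-70699067, plus strand): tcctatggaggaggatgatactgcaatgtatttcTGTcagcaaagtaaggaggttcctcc
Igkv10-96 (chr6:68631963-68632022, minus strand): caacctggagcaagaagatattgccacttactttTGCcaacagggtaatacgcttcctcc
Igkv1-110 (chr6:68271208-68271267, plus strand): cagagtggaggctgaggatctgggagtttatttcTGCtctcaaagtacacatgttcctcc
Iglv1 (chr16:19085017-19085076, minus strand): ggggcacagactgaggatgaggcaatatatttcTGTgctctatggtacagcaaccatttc
The heavy segments lie in the Igh locus on chromosome 12, the kappa segments in the Igk locus on chromosome 6 and the lambda segments in the Igl locus on chromosome 16, and each printed stretch lies within the second of 2 coding exons. Searched on both strands of the whole annotated transcript, the letters TATTACTGT, which end in a cysteine codon, were found in 97 of the 198 segments, 49.0%, and in 41.7% of all 348 V segment rows. The looser letters TANTNCTGT, which include every match of the first motif, were found in 148 of the 198 segments, 74.7%, against 63.2% of all rows. The looser letters were in 88 of the 98 heavy segments and in 58 of the 97 kappa segments. Absence of these letters says only that they are not in the transcript searched.

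Segments of a family can be near copies of each other, and the share of reads that the authors' program gave to each copy is then uncertain. Of the 198 segments, 96 had at least 50% of their 31-base stretches, on either strand, in the transcripts of another annotated gene, 26 had under 10%, and the median was 48.3%. For 187 of the 198 the gene that shared most was another V segment. The leading kappa segment Igkv1-110 and its near copy Igkv1-117 are compared here over the last 290 coding bases. Capitals mark the 9 positions where they differ (96.9% identical, longest identical stretch 142 bases).
Igkv1-110 (chr6:68270978-68271267, plus strand): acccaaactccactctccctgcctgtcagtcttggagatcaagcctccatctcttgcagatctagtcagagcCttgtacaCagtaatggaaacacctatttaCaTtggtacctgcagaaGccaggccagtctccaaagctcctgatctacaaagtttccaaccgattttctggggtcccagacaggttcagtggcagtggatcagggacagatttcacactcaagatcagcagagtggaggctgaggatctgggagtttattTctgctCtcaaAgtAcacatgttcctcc
Igkv1-117 (chr6:68121538-68121827, plus strand): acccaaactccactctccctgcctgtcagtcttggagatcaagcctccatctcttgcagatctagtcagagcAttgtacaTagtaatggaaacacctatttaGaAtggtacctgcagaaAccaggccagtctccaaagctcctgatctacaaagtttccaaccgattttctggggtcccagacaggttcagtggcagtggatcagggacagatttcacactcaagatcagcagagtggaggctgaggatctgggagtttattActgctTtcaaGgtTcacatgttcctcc
The leading heavy segment Ighv1-26 differed from Ighv1-18 at 8 positions (97.2% identical, longest identical stretch 94 bases), again in capitals.
Ighv1-26 (chr12:114788372-114788661, minus strand): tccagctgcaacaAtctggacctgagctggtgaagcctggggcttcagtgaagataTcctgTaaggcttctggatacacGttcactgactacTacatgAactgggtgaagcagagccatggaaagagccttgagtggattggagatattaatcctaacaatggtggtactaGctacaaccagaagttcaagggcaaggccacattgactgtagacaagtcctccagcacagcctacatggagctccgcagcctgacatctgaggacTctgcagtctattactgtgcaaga
Ighv1-18 (chr12:114682632-114682921, minus strand): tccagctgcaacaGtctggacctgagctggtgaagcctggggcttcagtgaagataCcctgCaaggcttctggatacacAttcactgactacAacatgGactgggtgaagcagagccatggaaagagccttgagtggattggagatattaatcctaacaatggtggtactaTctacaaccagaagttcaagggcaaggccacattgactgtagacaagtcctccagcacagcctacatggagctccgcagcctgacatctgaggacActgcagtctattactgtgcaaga
The lambda segments Iglv1 and Iglv2 differed at 7 positions (97.6% identical, longest identical stretch 104 bases), in capitals.
Iglv1 (chr16:19085017-19085306, minus strand): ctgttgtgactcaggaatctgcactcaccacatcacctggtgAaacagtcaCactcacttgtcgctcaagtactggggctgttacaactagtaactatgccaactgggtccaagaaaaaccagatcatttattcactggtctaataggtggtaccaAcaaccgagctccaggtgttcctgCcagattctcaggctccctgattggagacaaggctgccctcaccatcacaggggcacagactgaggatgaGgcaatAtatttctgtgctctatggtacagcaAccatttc
Iglv2 (chr16:19260401-19260690, minus strand): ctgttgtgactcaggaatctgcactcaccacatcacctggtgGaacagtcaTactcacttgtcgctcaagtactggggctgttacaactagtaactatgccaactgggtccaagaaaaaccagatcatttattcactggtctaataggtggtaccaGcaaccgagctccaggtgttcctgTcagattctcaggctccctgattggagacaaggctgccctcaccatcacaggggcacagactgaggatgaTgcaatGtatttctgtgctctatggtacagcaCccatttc
The FPKM ratio of the copies was not fixed across libraries. Ighv1-26 was between 1.32 and 4.27 times as abundant as Ighv1-18, Iglv1 between 4.16 and 14.6 times as abundant as Iglv2, and Igkv1-110 between 0.697 and 1.23 times as abundant as Igkv1-117. The closest pair of all, Ighv1-62-2 and Ighv1-71, shared 92.2% of the 31-base stretches of Ighv1-62-2 and kept a narrow ratio of 1.06 to 1.23. For this pair a change of either copy cannot be told from a change of the other.

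Libraries were alike in depth: over V segments above 1 FPKM, the median was 5.41 to 5.88 reads over each base per 1 FPKM. For single segments it went as low as 1.39 (ApcMin.PCdel library 3). All V segments together took between 1.39% and 2.27% of a library's FPKM. The 6 Paneth cell markers of a fixed list all had negative log2 fold changes. Their summed level was 3059 to 4294 FPKM in ApcMin and 1801 to 2267 FPKM in ApcMin.PCdel adenomas. Limma called none of them, and Mptx2, Itln1 and Mmp7 overlapped between the genotypes. The authors had reported Defa21, Defa22 and Lyz1 as low in ApcMin.PCdel adenomas by RNA-seq, so these are no independent check of the depletion. ApcMin library 6 stood apart, with the highest level of 64 of the 198 V segments, and limma's array quality weights gave it 0.237 against 0.634 to 3.09 for the others.

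Markers of plasma cells were present beside the V transcripts, while most of the B cell markers were below 1 FPKM. All 12 plasma cell markers were expressed, led by Jchain, which links IgA into dimers, at 1182, 1133 and 2012 FPKM in ApcMin and 1547, 1201 and 1383 FPKM in ApcMin.PCdel libraries. Mzb1, a chaperone of antibody assembly in the endoplasmic reticulum, was between 31.5 and 46.9 FPKM in the 6 libraries. Not all markers followed that order: Sdc1 (syndecan-1, which epithelial cells also make) was at 135, 120.1 and 82.6 FPKM, Txndc5 at 104, 90.4 and 75.7 FPKM and Xbp1, the secretory regulator, at 164, 158 and 152 FPKM in ApcMin libraries, each lowest in library 6. The other markers of the list, Jchain among them, were each highest in library 6 among the ApcMin libraries. Without Jchain the other 11 markers summed to 464, 430 and 396 FPKM in ApcMin and to 479, 462 and 451 FPKM in ApcMin.PCdel libraries. Most of that sum came from Xbp1, Sdc1 and Txndc5, with means of 164, 117 and 94.8 FPKM over the 6 libraries. The summed level of all 12 markers was 1563 to 2407 FPKM in ApcMin and 1663 to 2025 FPKM in ApcMin.PCdel libraries, and limma called none of them. Xbp1, at 172, 165 and 174 FPKM in ApcMin.PCdel libraries, and Prdm1 were higher in every ApcMin.PCdel than in every ApcMin library. The same held for 6.00% of all genes tested. Of 10 B cell markers, 8 were below 1 FPKM in every library, among them Ms4a1 (CD20) and the B cell master regulator Pax5, and Fcer2a (CD23) was listed at 0. Their sum was 16.0 to 23.4 FPKM in ApcMin and 18.3 to 20.2 FPKM in ApcMin.PCdel libraries, nearly all of it from the antigen receptor subunits Cd79a and Cd79b. The recombinase genes Rag1 and Rag2 were at or close to 0. Of the 9 genes of rearrangement and class switch, 7 were below 1 FPKM in every library and none was called.

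The constant regions were almost wholly IgA and kappa. Igha, the constant region of IgA, was at 8499, 7791 and 11650 FPKM in ApcMin and at 10157, 9089 and 8894 FPKM in ApcMin.PCdel libraries, and made up between 98.5% and 99.4% of all heavy constant region FPKM. The groups overlapped, and library 6 was highest. Per length, the heavy V segments summed to between 36.1% and 45.4% of the heavy constant region, and the kappa V segments to between 49.4% and 58.4% of Igkc, the kappa constant region. The lambda V segments summed to between 65.0% and 90.7% of the lambda constant regions. Of the 5 heavy and 4 light constant region genes tested, limma called none. Pigr, the epithelial receptor that carries IgA into the lumen, was at 344, 348 and 577 FPKM in ApcMin and at 683, 618 and 414 FPKM in ApcMin.PCdel libraries, with overlapping groups.

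The other lists bear on the tissue around these cells, and limma called none of their genes. The germinal centre B cell list had 3 of 6 genes tested (sums 10.97 to 17.2 FPKM in ApcMin, 11.6 to 15.8 FPKM in ApcMin.PCdel), and the lymphoid follicle list 3 of 6 (3.60 to 5.32 FPKM, 5.43 to 7.56 FPKM). The 7 T cell genes summed to 17.9 to 42.4 FPKM and 27.8 to 36.4 FPKM, and the 5 epithelial genes to 4206 to 5065 FPKM and 4306 to 5750 FPKM. The 5 smooth muscle genes summed to 147 to 246 FPKM and 221 to 333 FPKM, and the 4 macrophage genes to 16.5 to 18.2 FPKM and 19.3 to 24.7 FPKM, in the same order. The sums of the lymphoid follicle and macrophage lists did not overlap between the genotypes, and their part in the V segment levels was not tested. Of single genes, 6.00% of all tested were likewise higher in every ApcMin.PCdel library.

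The summed V segment signal of the genotypes overlapped in each chain. The heavy V segments summed to 3372, 2843 and 4667 FPKM in ApcMin and to 3960, 4186 and 3843 FPKM in ApcMin.PCdel libraries. The ApcMin.PCdel libraries lay close together and inside the ApcMin range, with a difference of 0.17 on the log2 scale (exact two-sided permutation test, p = 0.5). It was 0.01 without ApcMin library 5 and 0.37 without ApcMin library 6. The kappa V segments summed to 6205, 4905 and 8382 FPKM and to 7085, 6648 and 6681 FPKM, a log2 difference of 0.10 (exact two-sided permutation test, p = 0.7). Without ApcMin library 5 the kappa difference was -0.08, and without library 6 it was 0.30. Lambda V segments, a minor light chain type in mice, summed to 366, 368 and 663 FPKM in ApcMin and to 428, 270 and 293 FPKM in ApcMin.PCdel libraries, a log2 difference of -0.47 (exact two-sided permutation test, p = 0.3), which was -0.18 without ApcMin library 6. With 3 libraries against 3, this test cannot go below 0.1. After Benjamini-Hochberg adjustment over the 19 exact permutation tests of V segment usage, the smallest p was 0.814.

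**Figure D1:**
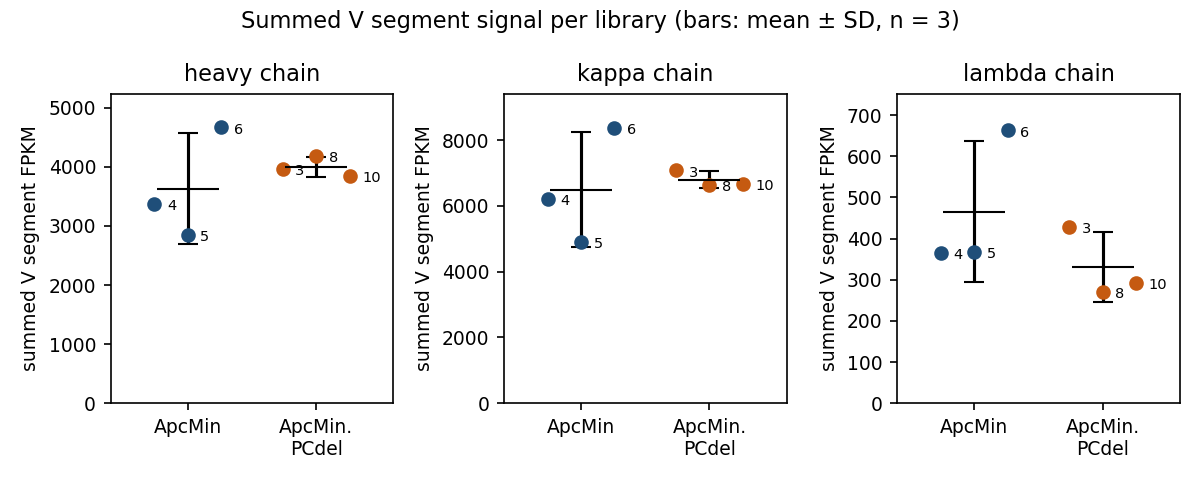
Summed FPKM of the heavy, kappa and lambda V segments (vertical axes, FPKM, starting at 0) in ApcMin and ApcMin.PCdel adenomas, with a point for each library labelled by its number, the mean as a line and the SD as bars (n = 3). The ApcMin.PCdel points lie inside the ApcMin range for heavy and kappa segments, and ApcMin library 6 is highest in each panel.

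Signal was spread over many segments, and the level of the 198 ran from 1.11 to 416 FPKM. A mean of 10 FPKM or more was reached by 164 segments and a mean of 100 FPKM or more by 27, of which 6 were heavy and 20 kappa. The signal was above 0 in every library for 187 segments and at least 1 FPKM in every library for 172. The group mean was at least 1 FPKM in both genotypes for 191 segments, while 5 passed the minimum only through ApcMin.PCdel and 2 only through ApcMin libraries. Just inside the minimum lay Igkv4-81, with a mean of 1.11 FPKM, and Ighv1-62-1, with 1.45 FPKM, and just outside it the pseudogenes Ighv3-2, with 0.971 FPKM, and Igkv2-116, with 0.962 FPKM. Of the 150 rows below the minimum, 100 were listed at 0 in all libraries. Pseudogenes, which carry damaged coding sequence, made up 12 of the 198 segments, but 130 of all 348 rows, and held between 0.636% and 1.07% of the heavy or kappa V signal. Of the 216 rows annotated as functional V genes, 6 were listed at 0.

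No single heavy segment dominated. Ighv1-26 was the most abundant in ApcMin libraries 4 and 6, with 5.59% and 8.34% of the heavy V signal, and Ighv3-6 led in ApcMin library 5 with 5.26%. Among ApcMin.PCdel libraries, Ighv1-82 led in library 3 with 4.78%, Ighv3-6 in library 8 with 7.92% and Ighv1-15 in library 10 with 5.88%. The leading share thus had a mean of 6.395% ± 1.69 (SD, n = 3) in ApcMin and 6.19% ± 1.59 (SD, n = 3) in ApcMin.PCdel libraries (exact two-sided permutation test, p = 0.8). Ighv1-26 ranked between 1 and 3 in every library, and with Ighv3-6 it held between 6.97% and 14.3% of the heavy V signal. Between 16 and 20 heavy segments made up 50% of the signal. The effective number of segments, the count of equally used segments that would give the same concentration (1 over the sum of squared shares), was 46.7, 51.8 and 38.4 in ApcMin and 47.5, 40.0 and 43.9 in ApcMin.PCdel libraries. The groups overlapped, and the difference of -1.80 had an exact two-sided permutation p of 0.8. Both heavy differences changed sign when single libraries were left out.

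The same few kappa segments ranked between 1 and 4 in all 6 libraries, though not always first. Igkv1-110, Igkv10-96 and Igkv1-117 together held between 15.9% and 20.3% of the kappa V signal in each library. The leading segment was Igkv3-2 in ApcMin library 4 with 5.899%, Igkv10-96 in ApcMin libraries 5 and 6 with 7.15% and 6.21% and in ApcMin.PCdel library 8 with 6.90%, and Igkv1-110 in ApcMin.PCdel libraries 3 and 10 with 7.67% and 7.42%. Its mean share was 6.42% ± 0.649 (SD, n = 3) in ApcMin and 7.33% ± 0.391 (SD, n = 3) in ApcMin.PCdel libraries (exact two-sided permutation test, p = 0.2). The effective number of kappa segments was 40.5, 38.52 and 41.0 in ApcMin and 36.2, 38.51 and 36.4 in ApcMin.PCdel libraries. Every ApcMin.PCdel library was below every ApcMin library, by the narrowest of margins between library 8 and library 5. The difference of -2.99 reached the lowest value that the exact permutation test allows here, 0.1, with an adjusted p of 0.814 over the 19 exact tests.

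**Figure D2:**
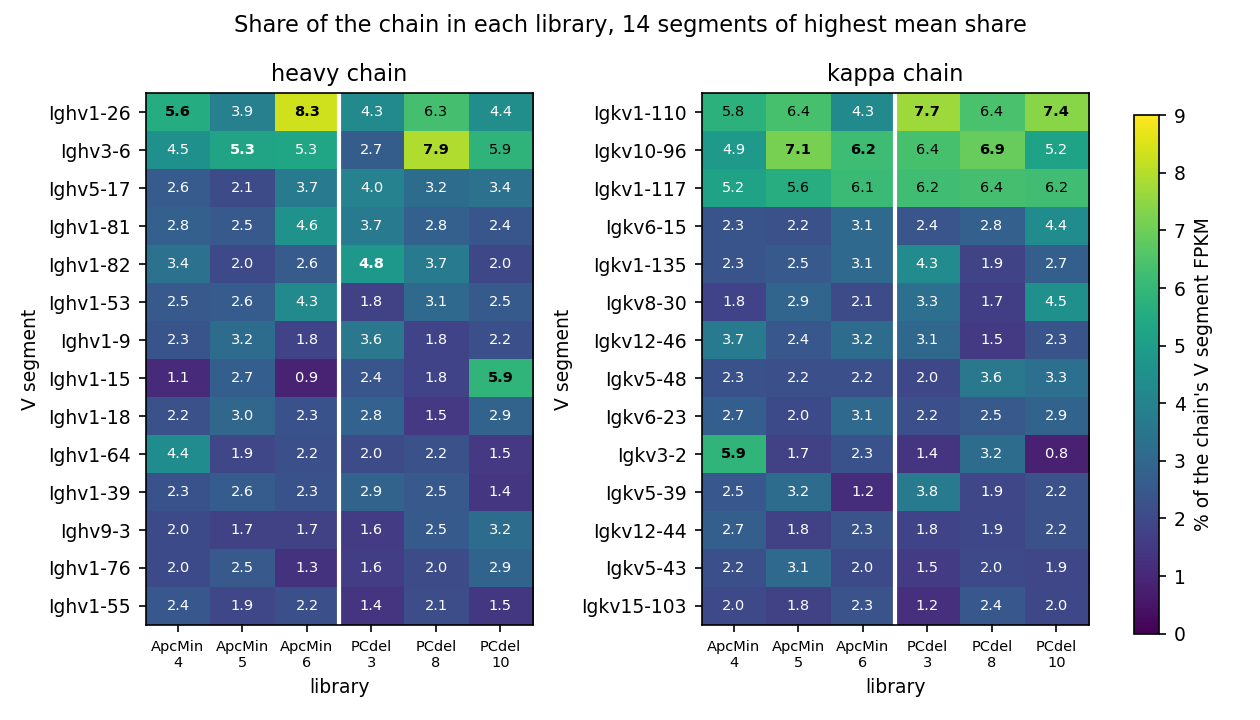
Share of the chain's V segment FPKM (color and printed percent) held by the 14 heavy and 14 kappa segments of highest mean share (rows) in each library (columns, 3 ApcMin then 3 ApcMin.PCdel), with the leading segment of each library in bold. The leading segment changes between libraries in both chains, with a heavy leader between 4.78% and 8.34%. Igkv1-110, Igkv10-96 and Igkv1-117 are high in every library, and Ighv1-26 ranks between 1 and 3 among heavy segments in each.

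The most abundant heavy segments varied widely within each genotype. Ighv1-26, of the large Ighv1 family, was at 188, 111 and 389 FPKM in ApcMin and at 170.4, 266 and 170.5 FPKM in ApcMin.PCdel libraries. Its level in ApcMin.PCdel fell within the ApcMin range, and its log2 fold change of -0.03 (SE 0.45) turned positive with TPM and without library 6. Ighv3-6 was at 153, 149 and 249 FPKM in ApcMin and at 105, 332 and 225 FPKM in ApcMin.PCdel libraries, where both the lowest and the highest value lie. Only 15.1% of its 31-base stretches occur in another gene, against 74.8% for Ighv1-26. Ighv5-17 was at 87.5, 59.7 and 172 FPKM in ApcMin and at 158, 133 and 131 FPKM in ApcMin.PCdel libraries. Ighv1-81 was at 93.3, 71.2 and 214 FPKM and at 147, 116 and 92.1 FPKM, respectively. For these segments and for Ighv1-82 (114, 56.4 and 120 FPKM against 189, 154 and 75.5 FPKM), the genotypes overlapped and limma's adjusted p was 1.0. Ighv1-15 was at 36.2, 76.1 and 42.6 FPKM in ApcMin and at 96.0, 75.7 and 226 FPKM in ApcMin.PCdel libraries, so that library 10 alone held 40.9% of its signal.

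The leading kappa segments were steadier. Igkv1-110 was at 360, 313 and 358 FPKM in ApcMin and at 544, 428 and 495 FPKM in ApcMin.PCdel libraries. Every ApcMin.PCdel library was above every ApcMin library, with a log2 fold change of 0.50 (SE 0.14), but it did not pass adjustment over all 14240 genes (limma, unadjusted p = 0.00901, adjusted p = 1.0). Its near copy Igkv1-117 was at 322, 274 and 513 FPKM in ApcMin and at 442, 422 and 417 FPKM in ApcMin.PCdel libraries, with overlapping groups, and the split of reads between the copies is uncertain. Igkv10-96 was at 303, 351 and 521 FPKM and at 451, 459 and 349 FPKM, also overlapping. The coefficient of variation over the 6 libraries was 20.6% for Igkv10-96, 21.4% for Igkv1-110 and 21.7% for Igkv1-117. Its median over the segments with a mean of at least 10 FPKM was 46.9% for 80 heavy and 41.5% for 81 kappa segments.

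Other abundant kappa segments moved more from library to library. Igkv6-15 was at 145, 109 and 258 FPKM in ApcMin and at 169, 184 and 292 FPKM in ApcMin.PCdel libraries. Igkv1-135 was at 145, 124 and 257 FPKM and at 308, 123 and 183 FPKM, respectively. Igkv3-2 was at 366, 85.5 and 190.4 FPKM and at 96.3, 212 and 54.5 FPKM, with its highest value in ApcMin library 4. All 3 overlapped between genotypes.

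Lambda usage rested on Iglv1. Iglv1 was at 311, 329 and 567 FPKM in ApcMin and at 335, 206 and 236 FPKM in ApcMin.PCdel libraries, which overlap (log2 fold change -0.61, SE 0.28, limma adjusted p = 1.0, and -0.33 without library 6). It made up 85.0%, 89.4% and 85.5% of the lambda V signal in ApcMin and 78.4%, 76.3% and 80.6% in ApcMin.PCdel libraries. These shares did not overlap, but they were compared after the values were seen and were not tested. Iglv2 was at 42.5, 24.6 and 38.8 FPKM in ApcMin and at 80.6, 33.3 and 23.7 FPKM in ApcMin.PCdel libraries. Iglv3 was at 12.4, 14.3 and 57.3 FPKM and at 11.95, 30.6 and 33.1 FPKM, and no 31-base stretch of it occurs in another gene. Iglc1, the most abundant lambda constant region, was at 324, 505 and 858 FPKM and at 366, 242 and 249 FPKM, also with overlapping groups. The groups of Iglc2 and Iglc3 overlapped as well. Lambda made up 5.56%, 6.97% and 7.33% of the light chain V signal in ApcMin and 5.69%, 3.91% and 4.20% in ApcMin.PCdel libraries (exact two-sided permutation test of the difference of -2.02 percentage points, p = 0.2).

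By family, the share of each of the 11 families tested overlapped between the genotypes. Ighv1, the largest family with 55 of the 198 segments, held 61.1%, 57.6% and 59.7% of the heavy V signal in ApcMin and 60.7%, 57.9% and 60.8% in ApcMin.PCdel libraries. Ighv5 held a mean of 8.67% and Ighv3 of 7.13% over the 6 libraries. Ighv3 was at 5.78%, 7.003% and 6.72% in ApcMin and 3.76%, 11.1% and 8.45% in ApcMin.PCdel libraries. Among kappa families, Igkv4 held a mean of 17.9%, Igkv1 of 16.7% and Igkv6 of 11.8%, the last with 10.8% ± 0.733 (SD, n = 3) in ApcMin and 12.7% ± 2.59 (SD, n = 3) in ApcMin.PCdel libraries. Igkv1 held 15.8%, 15.7% and 14.3% in ApcMin and 20.01%, 15.5% and 18.8% in ApcMin.PCdel libraries, which overlap (exact two-sided permutation test, p = 0.3). In 11 families with a mean share of at least 5%, the exact permutation p ranged from 0.3 to 1, which does not show that usage was alike.

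Used segments lay along the whole of each locus. The first 47 of the 185 heavy V rows, at the low end of the genome coordinates from Ighv5-1 to Ighv9-1 and nearest the D and J segments, held between 16.9% and 20.9% of the heavy V signal. The last 46 rows, from Ighv1-54 to Ighv1-86, held the most in every library, between 28.7% and 37.2%, and 30 of these 46 rows were among the 198 segments. Cut along its length into 4 sets of 40 rows, the kappa locus held between 19.97% and 30.3% in each set.

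**Figure D3:**
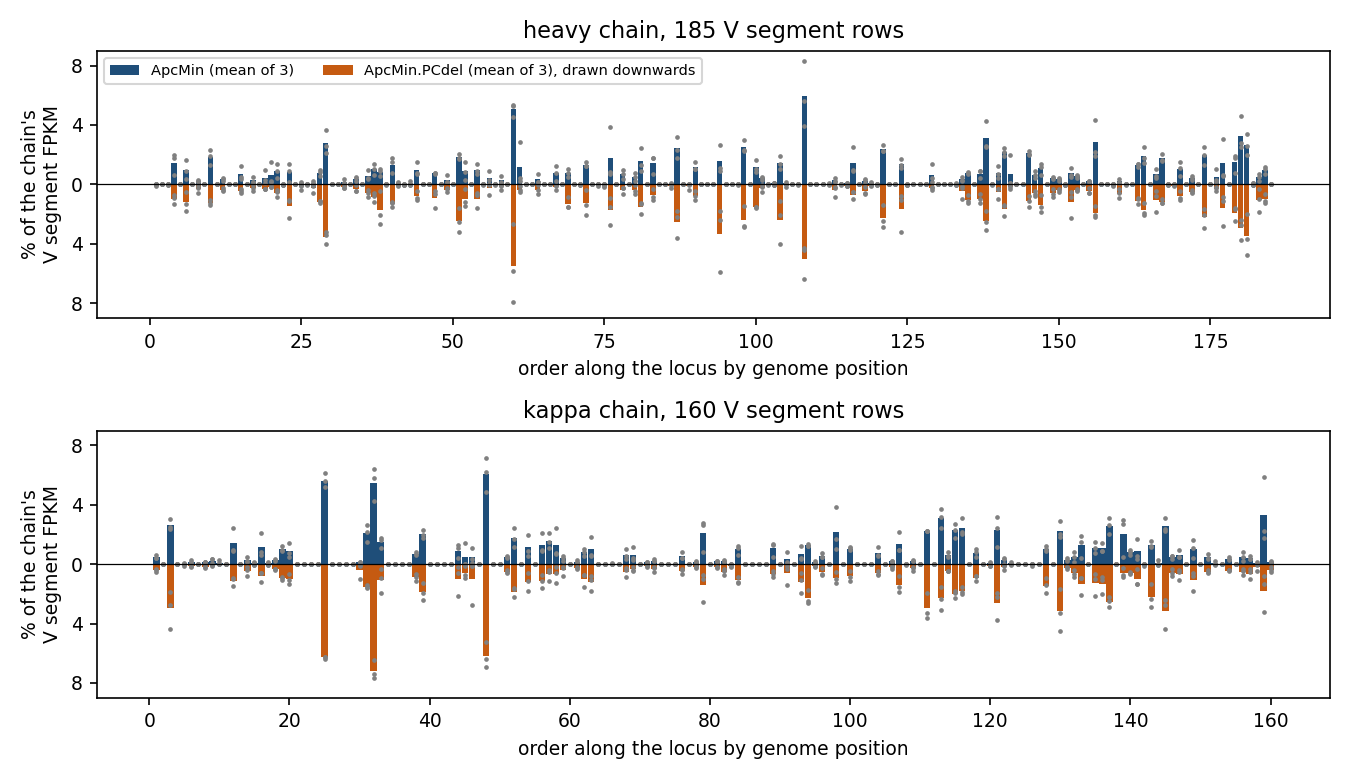
Share of the chain's V segment FPKM (vertical axis, percent) of each of 185 heavy and 160 kappa rows in order along the locus (horizontal axis, rank by genome position), with ApcMin means of 3 libraries drawn upwards, ApcMin.PCdel means of 3 drawn downwards and single libraries as grey points. The tallest bars recur in both directions, at Ighv3-6 and Ighv1-26 in the heavy panel and at Igkv1-117, Igkv1-110 and Igkv10-96 in the kappa panel.

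Any pair of libraries used the segments in a like order. Across the 98 heavy segments, Spearman's rho between the shares of a pair of libraries was between 0.72 and 0.86 over the 15 pairs, and across the 97 kappa segments between 0.76 and 0.88. These are correlations across segments of the same libraries, which share mappability and reads between copies, and carry no test. The shared usage, the sum over segments of the smaller of the 2 shares, was 69.5% to 79.8% for heavy and 75.7% to 81.5% for kappa segments. For heavy segments its median was 74.0% within ApcMin, 74.6% within ApcMin.PCdel and 76.3% between genotypes, and for kappa segments 77.8%, 77.9% and 78.6%. Libraries of a genotype were thus no closer to each other by this measure than to those of the other genotype.

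Segment by segment, limma called 0 of the 198 V segments at an adjusted p under 0.05, where 2 of all 14240 genes tested, 0.0140%, were called. At an unadjusted p under 0.05 there were 16 V segments, 8.08% of the 198, of which 13 were higher and 3 lower in ApcMin.PCdel adenomas, against 3.38% of all genes, of which 384 were higher and 97 lower (261 and 182 after quantile normalization). Without ApcMin library 5 the split of V segments was 13 higher and 10 lower. The ApcMin.PCdel libraries were all above the ApcMin libraries in 12 segments, 6.06%, against 6.00% of all genes, and all below in 4 segments, 2.02%, against 1.54% of all genes. By these shares of non-overlapping groups the V segments were close to the background. The V segment count at an unadjusted p under 0.05 was 40 with array quality weights, 20.2% of the 198 beside 8.92% of all genes. It was 26 (13.1% beside 5.76% of all genes) without library 6, 26 (beside 4.34%) without library 10 and 25 (12.6% beside 3.34%) without library 3. The log2 fold change was positive for 120 and negative for 78 V segments, with a median of 0.16, beside a median of 0.04 over all genes. The positive share was 60.6% for V segments and 63.1% for all genes. That median rested on single libraries: it was -0.02 without ApcMin library 5 and 0.31 without ApcMin library 6.

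**Figure D4:**
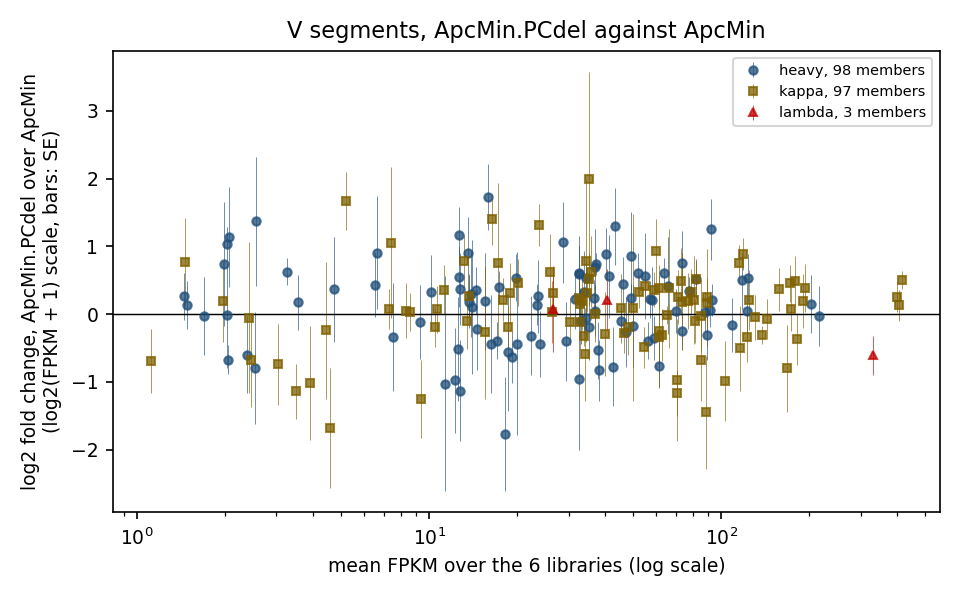
Log2 fold change of the 198 V segments, ApcMin.PCdel over ApcMin on the log2(FPKM + 1) scale (vertical axis, bars are SE), against the mean FPKM over 6 libraries (log axis), with heavy, kappa and lambda segments in separate symbols. Points scatter on both sides of 0 at every level, 120 above and 78 below, and none passed adjustment.

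The segments with the largest positive log2 fold changes were of low or middle level. Igkv1-99 was at 88.2, 0.636 and 1.83 FPKM in ApcMin and at 51.5, 6.87 and 62.2 FPKM in ApcMin.PCdel libraries. Its log2 fold change of 1.99 had an SE of 1.59, and its highest library was an ApcMin library. Ighv1-66 was at 12.1, 3.60 and 5.03 FPKM in ApcMin and at 37.6, 24.1 and 12.8 FPKM in ApcMin.PCdel libraries (log2 fold change 1.73, SE 0.49). Igkv4-69 was at 1.78, 0.981 and 2.71 FPKM and at 3.61, 9.01 and 13.2 FPKM (1.67, SE 0.43). Igkv3-1 was at 7.75, 11.96 and 5.45 FPKM and at 13.7, 35.0 and 24.4 FPKM (1.40, SE 0.38). In these last 3 segments the genotypes did not overlap, and limma's adjusted p was 1.0 for each. Ighv1-11 owed its log2 fold change of 1.37 to a single library and is described below with such segments.

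Among the segments with the most negative log2 fold changes, all but Igkv4-90 carried an SE of 0.58 to 0.89. Ighv13-2 was at 6.93, 22.3 and 58.3 FPKM in ApcMin and at 2.74, 3.35 and 15.8 FPKM in ApcMin.PCdel libraries (-1.77, SE 0.84). Igkv8-21 was at 28.2, 134 and 249.8 FPKM and at 49.1, 16.3 and 55.4 FPKM (-1.45, SE 0.83). Both overlapped, library 6 was their highest, and without it their log2 fold changes were -1.07 and -0.78. Igkv14-130 was at 20.03, 17.7 and 4.40 FPKM and at 2.61, 3.83 and 7.97 FPKM (-1.25, SE 0.58), again overlapping. Igkv4-90 was at 92.5, 103 and 89.9 FPKM in ApcMin and at 28.2, 74.6 and 34.8 FPKM in ApcMin.PCdel libraries, without overlap (-1.16, SE 0.34, limma unadjusted p = 0.0117, adjusted p = 1.0).

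Some segments had most of their signal in 1 library. In 21 of the 198 segments, 11 heavy and 10 kappa, a single library held over 50% of the signal summed over the 6. An even spread would give 16.7%. The share of all genes above 50% was not counted, so the 21 are not shown to be particular to V segments. Their means ran from 1.11 to 49.9 FPKM. Of the 21, 8 had their peak in ApcMin library 6, 2 in library 4 and 1 in library 5. In ApcMin.PCdel libraries 3, 8 and 10 there were 3, 4 and 3. Of the 21, 6 passed the minimum of 1 FPKM only through the group that holds their peak, so that their group was set by the choice of segments, among them Igkv9-129, Ighv1-11 and Ighv15-2. Among the other 15 the peak fell in an ApcMin library for 9 segments and in an ApcMin.PCdel library for 6. Ighv1-56 was at 2.35, 2.07 and 93.1 FPKM in ApcMin and at 2.32, 7.63 and 12.7 FPKM in ApcMin.PCdel libraries, and its log2 fold change moved from -0.44 to 1.19 without library 6. Igkv9-129 was at 3.23, 0.585 and 21.5 FPKM and at 0.776, 1.08 and 0.245 FPKM, with 78.4% of its signal in library 6, and its log2 fold change moved from -1.68 to -0.64 without that library. Ighv1-11 was at 0.168, 0 and 0.223 FPKM and at 0, 0.608 and 14.3 FPKM, with 93.5% in library 10. Only 1.25% of the 31-base stretches of Ighv1-11 occur in another gene. Ighv15-2 was at 0, 2.27 and 0 FPKM and at 9.16, 0 and 0.489 FPKM, with 76.9% in library 3. The pseudogene Igkv17-134 was above 0 in ApcMin library 6 (7.73 FPKM) and ApcMin.PCdel library 8 (6.82 FPKM) and listed at 0 in the other 4.

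Some of these single-library peaks were high, and the following were chosen after their values were seen, for a mean of over 15 FPKM. Igkv12-98 was at 66.7, 4.89 and 30.2 FPKM in ApcMin and at 8.15, 8.01 and 181 FPKM in ApcMin.PCdel libraries. Ighv9-4 was at 13.8, 7.01 and 133 FPKM and at 16.2, 5.06 and 19.9 FPKM. Ighv1-47 was at 4.30, 11.3 and 64.3 FPKM and at 10.7, 14.7 and 6.23 FPKM. The last 2 peaked in ApcMin library 6 and Igkv12-98 in ApcMin.PCdel library 10. Igkv2-112 was at 10.5, 8.51 and 2.26 FPKM in ApcMin and at 72.4, 7.80 and 1.66 FPKM in ApcMin.PCdel libraries, with its peak in library 3. Of the 31-base stretches of Igkv12-98 and Igkv2-112, 1.45% and 1.11% occur in another gene. Even the highest of these peaks stayed below the leading segment of its library.

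**Figure D5:**
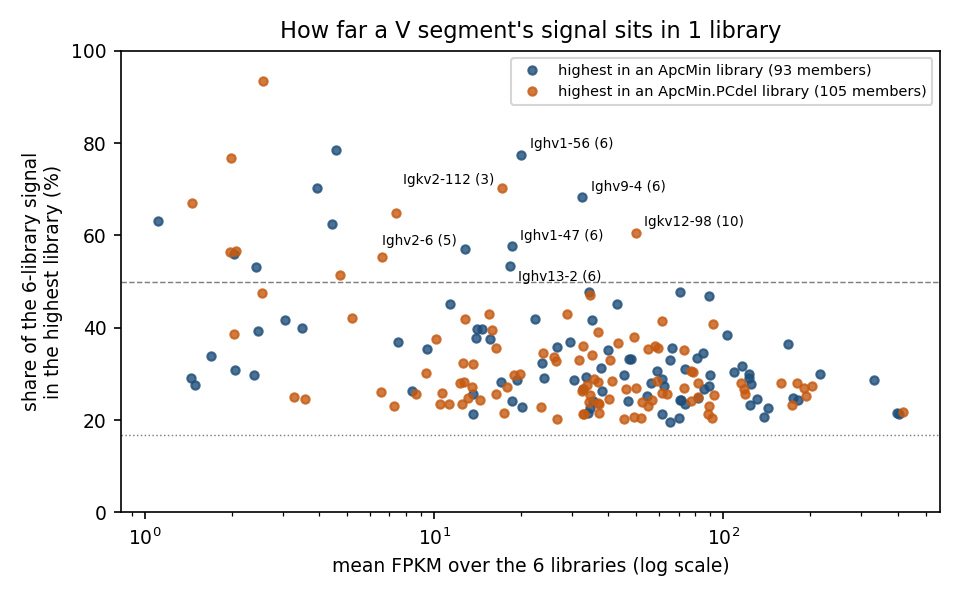
Share of each V segment's 6-library signal that sits in its highest library (vertical axis, percent) against its mean FPKM (log axis), colored by the genotype of that library, with the library number beside named segments over 50% (dashed line) with a mean of at least 10 FPKM. The dotted line is the 16.7% of an even spread. Segments over 50% occur in both genotypes, and 6 of the 21 passed the minimum only through the genotype of their peak, while those over 100 FPKM all stay below 50%.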

How the data were processed

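RNA from 6 adenoma samples was made into libraries with the TruSeq RNA kit and sequenced on an Illumina instrument. The methods name CLC Genomics Workbench for alignment and a normalization in MatLab without its settings; the program and annotation behind the tables are not given in the sources used here, nor how reads that match several V segments were split. The authors deposited for each gene FPKM (scaled for length and library size), TPM and mean read coverage; FPKM was analysed, TPM was an alternative and coverage gave the depth, with no read counts. Positions of all 348 V rows match GENCODE M21 on GRCm38. Entries of a gene were summed. The 14240 genes averaging 1 FPKM or more were fitted on log2(FPKM + 1), which understates changes of low genes, with limma 3.58.1 in R 4.3.3 (trend, Benjamini-Hochberg over all, threshold 0.05). Sums, shares and effective numbers were compared by exact two-sided permutation of the libraries. Scripts were tested on simulated data. The segments named are the 5 most abundant heavy and kappa segments, all lambda segments, each library's leaders, the 5 largest log2 fold changes each way, the 5 highest ratios of highest to median library and those nearest the minimum. The members and lists were chosen with earlier results of these data known. Alternatives were TPM, a pseudocount of 0.1, a minimum of 5, no filter, other scalings, no trend, array quality weights, members only and each library left out.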

Additional observations from a re-analysis of the deposited data

How the results depend on the processing

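Under every alternative run, 0 V segments passed limma's adjusted threshold, and the smallest adjusted p of a named segment was 0.128 (Igkv4-90 without library 8). The count at an unadjusted p under 0.05, 16 as reported, was 40 with array quality weights (1270 of 14240 over all genes) and 21 to 26 with each library left out (358 to 820 over all genes). With each library left out, differences (ApcMin.PCdel minus ApcMin) ranged from -0.085 to 0.30 (log2) for the kappa sum, -1.06 to 0.77 percentage points for the heavy leading share and -5.39 to 1.27 for the heavy effective number. Family differences ranged from -0.61 to 1.28 (Ighv1), -0.40 to 3.26 (Ighv3), -0.57 to 1.07 (Ighv5), -0.49 to 0.80 (Igkv10), -2.14 to 0.36 (Igkv3), -0.55 to 1.17 (Igkv5) and -0.99 to 0.73 (Igkv8) percentage points. Of 30 named segments, 10 changed sign in at least 1 alternative. Their log2 fold changes without single libraries ranged from -0.45 to 0.45 (Ighv1-26), -0.21 to 0.61 (Ighv3-6), -0.28 to 0.51 (Ighv1-81), -0.037 to 0.35 (Igkv10-96), -0.15 to 0.51 (Igkv1-135), -0.31 to 0.75 (Iglv3), -0.28 to 0.58 (Iglv2), -1.04 to 0.99 (Igkv17-134), -0.28 to 1.39 (Ighv15-2) and -1.28 to 1.19 (Ighv1-56). Ighv1-26 was at 0.032 with TPM and 0.034 with quantile normalization, and Ighv1-81 at -0.0019 with median centring. With array quality weights Ighv1-26 was at 0.54, Igkv17-134 at 0.92 and Ighv1-56 at 0.73. The cause of these changes was not tested. The paper used littermate controls and co-housed the genotypes in its tumor experiments. The labels do not link libraries by litter or cage, so no paired analysis was possible. With 2 libraries against 3 the exact permutation test cannot go below p = 0.2, and no counts are at hand, so counting error was not estimated.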

Other observations

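The following segments were chosen after their values were seen. Ighv11-2, which B-1a cells of mice often pair with Igkv14-126 in antibodies to phosphatidylcholine, was at 6.81, 0.699 and 0 FPKM in ApcMin and at 0.264, 2.30 and 2.08 FPKM in ApcMin.PCdel libraries, with 56.0% of its signal in ApcMin library 4. Igkv14-126 was at 30.01, 8.80 and 20.96 FPKM and at 29.1, 14.3 and 52.1 FPKM. Ighv12-3, another segment of such antibodies, was at or below 0.256 FPKM in all 6 libraries and is not among the 198. Ighv1-72, the segment that C57BL/6 mice favor against the hapten NP, was at 54.7, 45.3 and 94.6 FPKM and at 50.9, 52.4 and 38.5 FPKM, and 78.4% of the 31-base stretches of Ighv1-62-3 occur in it.

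Beside IgA, IgG constant regions were present at low levels. Ighg2b was at 35.1, 32.9 and 37.1 FPKM in ApcMin and at 68.5, 34.7 and 37.4 FPKM in ApcMin.PCdel libraries. Ighg1 was at 20.9, 10.1 and 11.9 FPKM and at 25.2, 65.3 and 9.39 FPKM, with its peak in ApcMin.PCdel library 8. Ighm, the constant region of IgM, was at 6.15, 6.44 and 6.86 FPKM and at 7.44, 7.85 and 10.6 FPKM. It was not called by limma. Its groups did not overlap, and 6.00% of all genes tested were likewise higher in every ApcMin.PCdel library.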
